A study of Mus musculus with 18 samples.

Results

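The genes described here are 10 genes of the ATF4 and endoplasmic reticulum (ER) stress response: Atf4, its targets Trib3, Asns, Chac1 and Ddit3, the phosphatase subunit gene Ppp1r15a, the transcription factor gene Xbp1, and the ER protein genes Hspa5, Herpud1 and Dnajb9. They were chosen with earlier results of these data known and were taken by symbol. All 10 were present once among the 24346 gene symbols of every library. Liver, intestine and lung were taken 24 h after cecal ligation and puncture (CLP), an operation that lets gut bacteria leak into the abdomen and so causes sepsis, and their poly(A) RNA was sequenced. Every mouse was a male C57BL/6 mouse of 9 weeks with the same operation, and no allele or other agent is given in the labels. The 3 H2 groups (liver, intestine and lung, n = 3 libraries each) came from mice that breathed 7% hydrogen gas continuously from directly after the operation. The 3 control groups (n = 3 libraries each) came from mice operated on without the gas. The H2 mice shared a cage in a gas box, so gas and housing cannot be told apart. Sham-operated mice were not analysed here, so the values do not show the effect of sepsis. The labels do not state that the 3 libraries of a group are separate animals, nor which organs came from 1 mouse, so the p-values measure the spread between these libraries.

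Cells answer protein overload in the ER and shortage of amino acids through linked pathways. Stress kinases phosphorylate the translation factor eIF2alpha, which slows protein synthesis in general but favours translation of the ATF4 mRNA, and ATF4 then switches on genes of amino acid supply and of stress feedback. In parallel, IRE1 splices the Xbp1 mRNA and ATF6 moves from the ER to the Golgi, where it is cut, and both raise chaperones and the machinery that removes misfolded proteins from the ER. ATF4 is therefore regulated largely in translation and XBP1 largely by splicing, and the deposited values per gene show neither step: they are the total mRNA of each gene.

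Promoter sequence gives the binding letters by which these pathways are usually described, so 4 promoters that hold a match are printed. Stretches run from 200 bases before the annotated start of transcription to the base before it, 5′ to 3′ on the strand of the gene, from RefSeq on build GRCm38.p6, and capitals mark an exact motif match on either strand.
Asns (chr6:7693210-7693409, minus strand): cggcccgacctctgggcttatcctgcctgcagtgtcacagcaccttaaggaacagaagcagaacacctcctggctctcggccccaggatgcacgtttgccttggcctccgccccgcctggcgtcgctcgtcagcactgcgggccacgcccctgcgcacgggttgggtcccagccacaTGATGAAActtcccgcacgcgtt
Chac1 (chr2:119351042-119351241, plus strand): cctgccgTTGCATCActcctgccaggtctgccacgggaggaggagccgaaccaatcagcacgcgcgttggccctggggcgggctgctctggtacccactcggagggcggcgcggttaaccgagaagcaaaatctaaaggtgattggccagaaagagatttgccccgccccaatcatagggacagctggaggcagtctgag
Herpud1 (chr8:94386229-94386428, plus strand): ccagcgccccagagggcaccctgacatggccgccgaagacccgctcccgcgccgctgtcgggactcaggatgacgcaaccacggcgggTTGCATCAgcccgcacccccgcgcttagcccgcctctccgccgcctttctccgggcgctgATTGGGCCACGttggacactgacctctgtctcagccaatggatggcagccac
Hspa5 (chr2:34771890-34772089, plus strand): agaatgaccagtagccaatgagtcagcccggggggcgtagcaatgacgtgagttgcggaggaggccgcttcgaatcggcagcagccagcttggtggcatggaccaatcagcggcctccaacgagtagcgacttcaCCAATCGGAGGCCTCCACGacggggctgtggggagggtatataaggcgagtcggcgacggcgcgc
The capitals are the C/EBP-ATF response element (CARE, TGATGNAA), read by ATF4 with C/EBP partners, in Asns, Chac1 and, as the match farther from the start, Herpud1. In Chac1 and Herpud1 it lies on the strand opposite to the gene. In Hspa5 they are the ER stress response element (ERSE, CCAAT and CCACG with 9 bases between them), read by ATF6 and XBP1 with NF-Y. The match nearer to the start of Herpud1 is the related element ERSE-II (ATTGG and CCACG with 1 base between them).

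All 10 genes had a promoter in the RefSeq table, and the search covered 250 bases before to 50 bases after the start on both strands. CARE was found in 4 of the 10 genes, in Trib3 (positions 15 to 22 after the start), Asns (-23 to -16), Chac1 (-193 to -186) and Herpud1 (-112 to -105), and in 3.97% of the 32851 promoters searched. ERSE was found in Hspa5 (-65 to -47) and in 0.119% of all promoters. ERSE-II was found in Herpud1 (-52 to -42) and in 0.0365% of all promoters. The unfolded protein response element (UPRE, TGACGTGG), a site of XBP1 and ATF6, was found in 0 of the 10 and in 0.676% of all promoters. The matches in Herpud1 do not overlap each other. In the map of motif matches, 5 of the 10 windows hold at least 1 match and those of Atf4, Ddit3, Ppp1r15a, Xbp1 and Dnajb9 hold none, which says only that these exact letters are not in these windows.

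**Figure D1:**
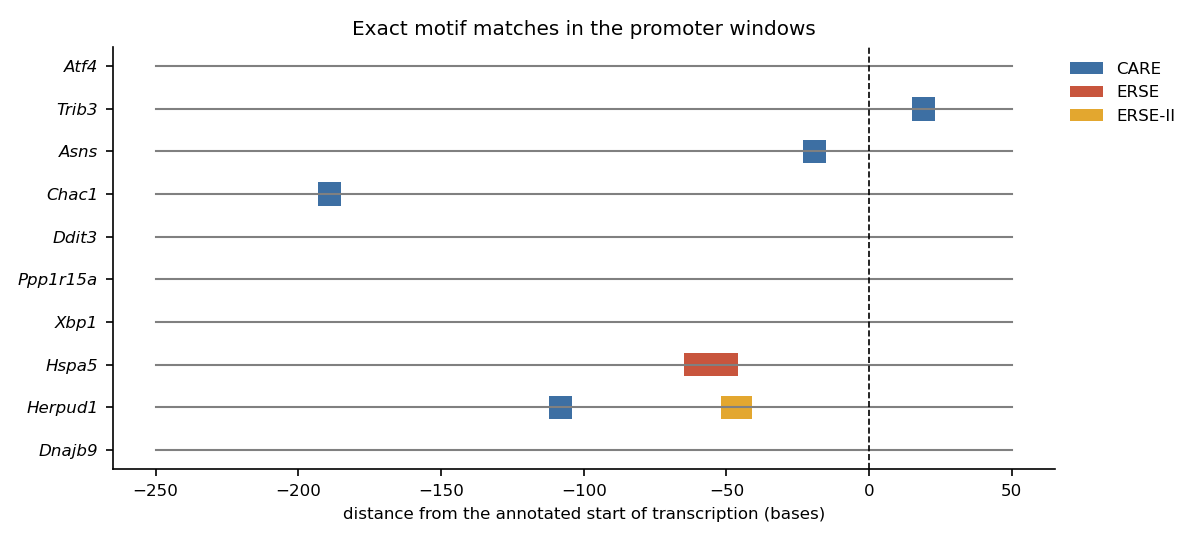
Exact motif matches (coloured blocks) along the promoter window of each of the 10 genes (grey lines), with the distance from the annotated start of transcription in bases on the x axis. CARE lies in Trib3, Asns, Chac1 and Herpud1, ERSE in Hspa5 and ERSE-II in Herpud1.

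Values are FPKM, in which the fragments of a gene are divided by its length in kilobases and by the total of the library. The files hold no counts, and the depth implied by the FPKM of genes with 1 fragment ran from 8.81 to 15.67 M fragments. The labelled organs bore their markers. The summed FPKM of 6 hepatocyte genes was 37600 to 64800 in the liver libraries, 3070 to 15600 in the intestine and at most 30.5 in the lung. In the intestine 6 goblet cell genes summed to 9670 to 24800, and to at most 16.8 elsewhere. In the lung 6 alveolar type 2 genes summed to 25200 to 38900, and to at most 193 elsewhere. H2 intestine 2 had a summed FPKM of 1142966, against 712858 to 850609 in the other intestine libraries. Control liver 2 and control lung 3 stood apart from their groups. On an axis over all tested genes from 0 (mean of the other control libraries) to 1 (mean of the other H2 libraries) they lay at 0.80 and 0.76, while H2 livers lay at 0.70 to 0.93 and H2 lungs at 0.78 to 0.84. In the intestine the groups were less distinct: H2 libraries lay at 0.44 to 0.86 and control intestine 2 at 0.56, within their range. Results are therefore given with and without these 3 control libraries.

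In the mean over the 3 organs, hydrogen-treated septic mice had less mRNA of Atf4 and of Xbp1, the central transcription factors of the response. They also had less of Trib3, Asns and Ppp1r15a, which act downstream in ATF4 feedback, amino acid supply and recovery of translation. In bulk RNA, fewer cells of a type and less RNA per cell cannot be told apart. The mean change over the organs was between -0.50 and -0.63 on the log2(FPKM + 1) scale for these 5 genes. All log2 changes below are on this scale, which makes differences at low FPKM smaller. In an organ taken alone, none of the 5 genes reached an adjusted p under 0.05. In the intestine the change was -0.19 to -0.25 for Atf4, Trib3, Asns and Xbp1, and -0.97 for Ppp1r15a. The major ER chaperone gene Hspa5 and the pro-apoptotic factor gene Ddit3 were at 0.12 ± 0.10 and 0.07 ± 0.10 (SE), and neither passed. By limma's moderated test over the 18 libraries with Benjamini-Hochberg adjustment over 13362 genes, 5 of the 10 genes fell at an adjusted p under 0.05 and 0 rose. Among all tested genes 9.62% passed, 5.23% lower and 4.39% higher. Asns and Ppp1r15a did not pass with a pseudocount of 5 (limma adjusted p = 0.0546 for each) or without the filter on low values (0.0673 and 0.0632), and 3 of the 10 genes, Atf4, Trib3 and Xbp1, then passed. Asns also missed at a pseudocount of 0.1 (0.0509) and with median-of-ratios scaling (0.0545), and Ppp1r15a with quantile normalization (0.0538). The median change of the 10 genes was -0.52, against 0.00 for all tested genes, and 8 of the 10 were below 0 (49.6% of all genes). Since the 10 were chosen with earlier results known, the values for all genes give a scale and are no test of the set. This test takes the 18 libraries as independent. With the organs of each group averaged by replicate number, leaving 3 values a group, 0 of the 10 genes passed (0.12% of all genes did), and the smallest adjusted p was 0.0560, for Xbp1.

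In the liver, Atf4 (chr15:80255184-80257541, build mm10, plus strand) had 82.4, 89.8 and 83.9 FPKM in H2 livers 1 to 3, against 159, 101.2 and 179 FPKM in control livers 1 to 3. H2 lungs 1 to 3 had 222, 155 and 198 FPKM, against 347, 284 and 226 FPKM in control lungs 1 to 3. H2 intestines 1 to 3 had 202, 181 and 193 FPKM, against 219, 208 and 239 FPKM in control intestines 1 to 3. All H2 libraries of an organ lay below all its control libraries in each of the 3 organs, with control liver 2 and control lung 3 as the control libraries nearest to H2 in their organs. Over the organs Atf4 fell by 0.50 on the log2 scale (SE 0.11, limma adjusted p = 0.0214). It passed in 18 of 18 fits that each left out 1 library, with a largest adjusted p of 0.0494. By organ the log2 change was -0.73 ± 0.22 (liver), -0.20 ± 0.17 (intestine) and -0.57 ± 0.20 (lung; SE, n = 3 each), and none passed alone (limma adjusted p = 0.168, 0.598 and 0.186).

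Trib3, a pseudokinase that feeds back on ATF4 signalling (chr2:152337422-152344032, minus strand), had 2.14, 3.04 and 2.24 FPKM in H2 livers, against 4.57, 4.13 and 7.39 FPKM in control livers. In H2 lungs it had 4.09, 2.87 and 3.82 FPKM, against 6.44, 5.48 and 5.12 FPKM in control lungs. Both pairs of groups were apart, with H2 lower. In H2 intestines it had 4.26, 3.71 and 6.29 FPKM, against 7.67, 3.66 and 6.53 FPKM in control intestines, where control intestine 2 lay below every H2 library. Over the organs Trib3 fell by 0.55 on the log2(FPKM + 1) scale (SE 0.14, limma adjusted p = 0.0285), and it passed in 9 of the 18 fits that left out a library.

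Asns, which makes asparagine (chr6:7675169-7693254, minus strand), had 10.7, 11.2 and 11.1 FPKM in H2 lungs, against 19.99, 13.7 and 16.4 FPKM in control lungs. The H2 lungs were close together and all below the control lungs. In the liver it had 10.3, 16.6 and 6.07 FPKM in H2 libraries, against 26.4, 13.7 and 24.8 FPKM in control libraries, and control liver 2 lay below H2 liver 2. In the intestine, where Asns was most abundant, it had 111, 60.2 and 69.7 FPKM in H2 libraries, against 105, 93.1 and 78.9 FPKM in control libraries, with overlap. Over the organs Asns fell by 0.58 on the log2 scale (SE 0.18, limma adjusted p = 0.0487), near the threshold, and it passed in 4 of the 18 fits that left out a library.

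Chac1, which degrades glutathione (chr2:119351229-119354381, plus strand), had the most negative mean change of the 10 genes, -0.88 ± 0.29 (SE), and did not pass (limma adjusted p = 0.0611). Its libraries differed widely within the liver, where it had 5.19, 16.9 and 6.94 FPKM in H2 libraries, against 39.0, 7.22 and 30.1 FPKM in control libraries. Control liver 2 lay among the H2 libraries. Intestines had 15.1, 6.89 and 5.61 FPKM in H2 libraries, against 13.5, 18.4 and 20.3 FPKM in control libraries, and H2 intestine 1 exceeded control intestine 1. In the lung it had 2.36, 1.88 and 1.55 FPKM in H2 libraries, against 3.01, 3.78 and 2.83 FPKM in control libraries, without overlap.

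Ddit3 encodes CHOP, the pro-apoptotic factor that ATF4 induces (chr10:127290774-127296288, plus strand). It had 11.6, 8.12 and 8.39 FPKM in H2 livers, against 8.55, 10.3 and 10.5 FPKM in control livers. Intestines had 24.1, 21.4 and 18.8 FPKM in H2 libraries, against 21.3, 15.9 and 20.1 FPKM in control libraries. In the lung it had 43.4, 32.3 and 38.6 FPKM in H2 libraries, against 29.9, 34.7 and 41.7 FPKM in control libraries. The groups overlapped in all 3 organs, and the mean change was 0.07 ± 0.10 (SE, limma adjusted p = 0.679). Exons of Ddit3 overlap exons of Mars, a tRNA synthetase gene on the other strand, by up to 68 bases, and how strand was used in counting is not given in the sources used here.

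Ppp1r15a encodes GADD34, the stress-induced subunit that directs a phosphatase to eIF2alpha and restores translation (chr7:45522916-45526268, minus strand). It had 4.66, 5.19 and 5.08 FPKM in H2 livers, against 9.30, 6.59 and 7.86 FPKM in control livers, without overlap. In the intestine it had 5.19, 4.80 and 3.998 FPKM in H2 libraries, against 19.4, 4.88 and 10.1 FPKM in control libraries. Control intestine 1 was the highest, and control intestine 2 lay within the H2 range. In the lung it had 45.1, 28.1 and 29.4 FPKM in H2 libraries, against 54.5, 40.4 and 36.6 FPKM in control libraries, with H2 lung 1 among the control libraries. Over the organs Ppp1r15a fell by 0.63 on the log2 scale (SE 0.18, limma adjusted p = 0.0444), and it passed in 3 of the 18 fits that left out a library. Its constitutive counterpart Ppp1r15b was at -0.09 ± 0.08 (SE, limma adjusted p = 0.459).

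Xbp1, the factor activated by IRE1 (chr11:5520659-5525893, plus strand), had the smallest adjusted p of the 10 genes. Its widest gap was in the lung, with 126, 128 and 126 FPKM in H2 libraries, against 314, 303 and 172 FPKM in control libraries. Control lung 3 lay much nearer to the H2 lungs than to the other control lungs. In the liver it had 142, 191 and 172 FPKM in H2 libraries, against 224, 215 and 287 FPKM in control libraries, again without overlap. In the intestine it had 200, 188 and 160 FPKM in H2 libraries, against 192, 220 and 213 FPKM in control libraries, with H2 intestine 1 above control intestine 1. Over the organs Xbp1 fell by 0.57 on the log2 scale (SE 0.11, limma adjusted p = 0.0133), and it passed in 18 of 18 fits that left out a library, with a largest adjusted p of 0.0335. FPKM per gene cannot separate spliced from unspliced Xbp1 mRNA.

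None of the 3 ER protein genes passed. Hspa5 encodes BiP, a major ER chaperone (chr2:34771970-34777547, plus strand), and had the highest FPKM of the 10 genes in every liver and intestine library. In H2 livers it had 836, 851 and 835 FPKM, against 624, 822 and 719 FPKM in control livers, with every H2 library higher. H2 intestines had 613, 593 and 440 FPKM, against 428, 542 and 421 FPKM in control intestines, and H2 lungs had 333, 283 and 355 FPKM, against 373, 280 and 410 FPKM in control lungs. Both of these overlapped, and the mean change over the organs was 0.12 ± 0.10 (SE, limma adjusted p = 0.438).

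Herpud1, an ER membrane protein of the degradation machinery (chr8:94386438-94395377, plus strand), had changes of both signs among the organs. In H2 intestines it had 49.9, 49.2 and 49.0 FPKM, against 105, 57.4 and 82.9 FPKM in control intestines. In H2 lungs it had 129, 157 and 144 FPKM, against 172, 175 and 167 FPKM in control lungs. H2 libraries were lower without overlap in both organs, and the 3 H2 intestines were nearly equal. In H2 livers it had 119, 206 and 129 FPKM, against 117, 119 and 132 FPKM in control livers, with H2 liver 2 far above the rest and no separation of the groups. The difference of the H2 change, liver minus intestine, was 0.93 ± 0.28 (SE) and did not pass (limma adjusted p = 0.147), and the mean change of -0.23 ± 0.12 (SE) did not pass either (limma adjusted p = 0.199).

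Dnajb9 encodes ERdj4, a co-chaperone of BiP (chr12:44205559-44210326, minus strand). It had 87.2, 106 and 112 FPKM in H2 livers, against 84.1, 118 and 140 FPKM in control livers. Intestines had 27.1, 38.9 and 27.8 FPKM in H2 libraries, against 26.8, 32.1 and 30.2 FPKM in control libraries. Both organs overlapped. In the lung it had 46.0, 47.9 and 48.9 FPKM in H2 libraries, just below the 49.8, 52.5 and 58.5 FPKM of the control libraries. Its mean change was -0.08 ± 0.10 (SE, limma adjusted p = 0.604).

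**Figure D2:**
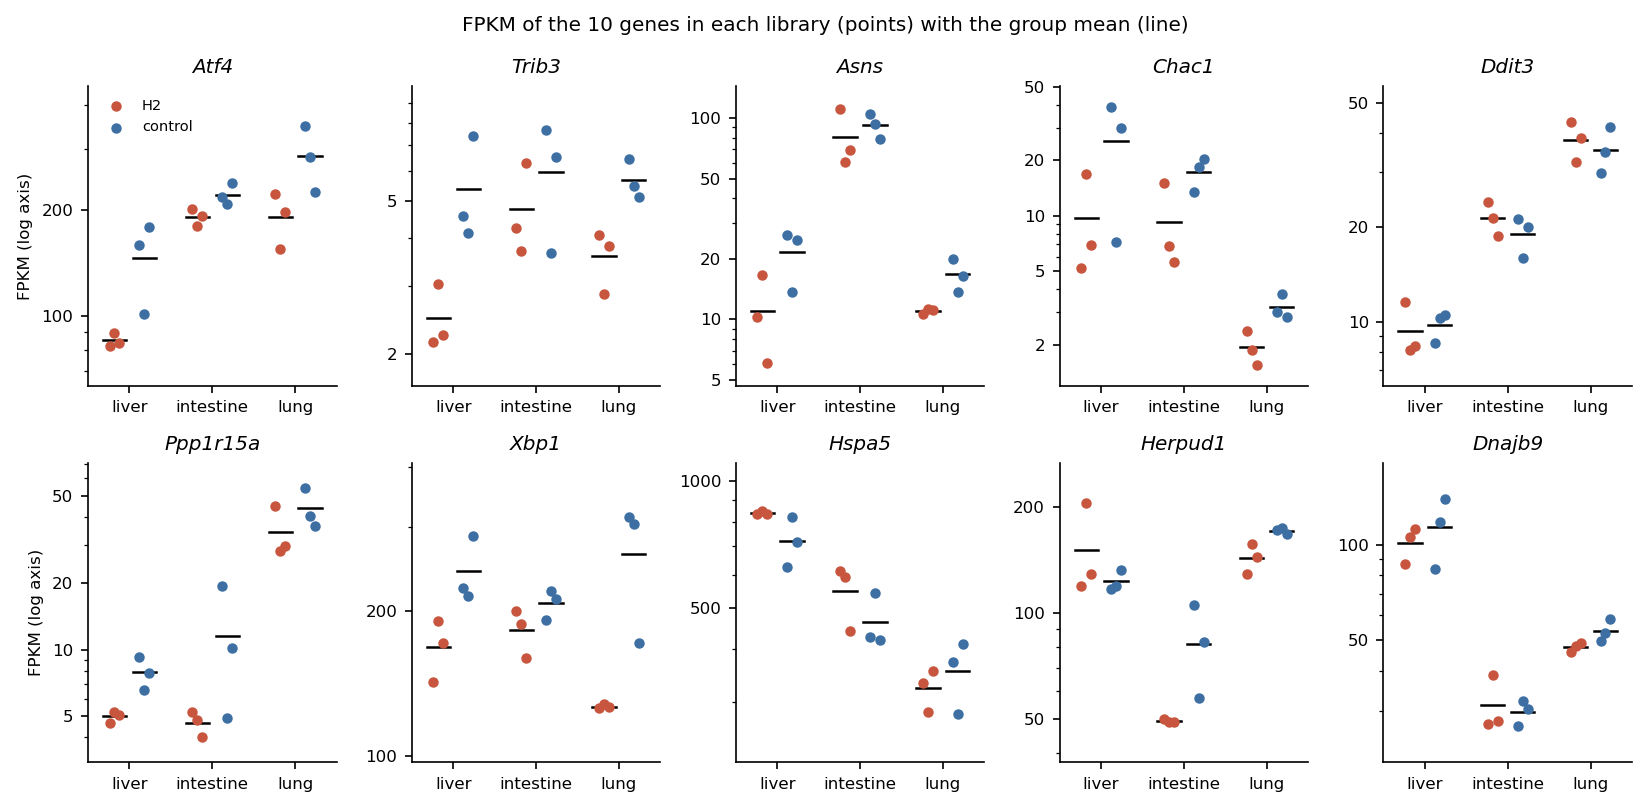
FPKM of each of the 10 genes (log axis) by organ, with 1 point per library (H2 left and red, control right and blue) and a line at the group mean. For Atf4 all H2 points of an organ lie below its control points, with H2 lungs at 155 to 222 FPKM and control lungs at 226 to 347 FPKM, whereas the points of Ddit3 overlap in every organ.

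Taken organ by organ, the same tests passed none of the 10 genes. In the liver 0 of 10 passed by limma (0.0199% of 10041 tested genes did), 5 had an unadjusted p under 0.05, all lower (10.2% of tested genes were lower at that level), and 4 were lower without overlap (13.1% of tested genes) while Hspa5 was higher without overlap (12.2%). The change was below 0 for 8 of the 10 (53.2%). In the intestine 0 of 10 passed (0.0084% of 11910 tested genes), 3 had an unadjusted p under 0.05, all lower (5.96%), Atf4 and Herpud1 were lower without overlap (8.75%), and 0 were higher (10.6%). The change was below 0 for 7 of the 10 (47.8%). In the lung 0 of 10 passed (0.00745% of 13424 tested genes), 6 had an unadjusted p under 0.05, all lower (12.5%), 7 were lower without overlap (15.9%), and 0 were higher (14.1%). The change was below 0 for 9 of the 10 (50.5%). The median change of the 10 genes was -0.54 (liver), -0.22 (intestine) and -0.44 (lung), against -0.02, 0.02 and 0.00 for all tested genes. In the plot of changes, Atf4, Trib3, Asns, Chac1, Ppp1r15a and Xbp1 lie left of 0 in every organ.

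**Figure D3:**
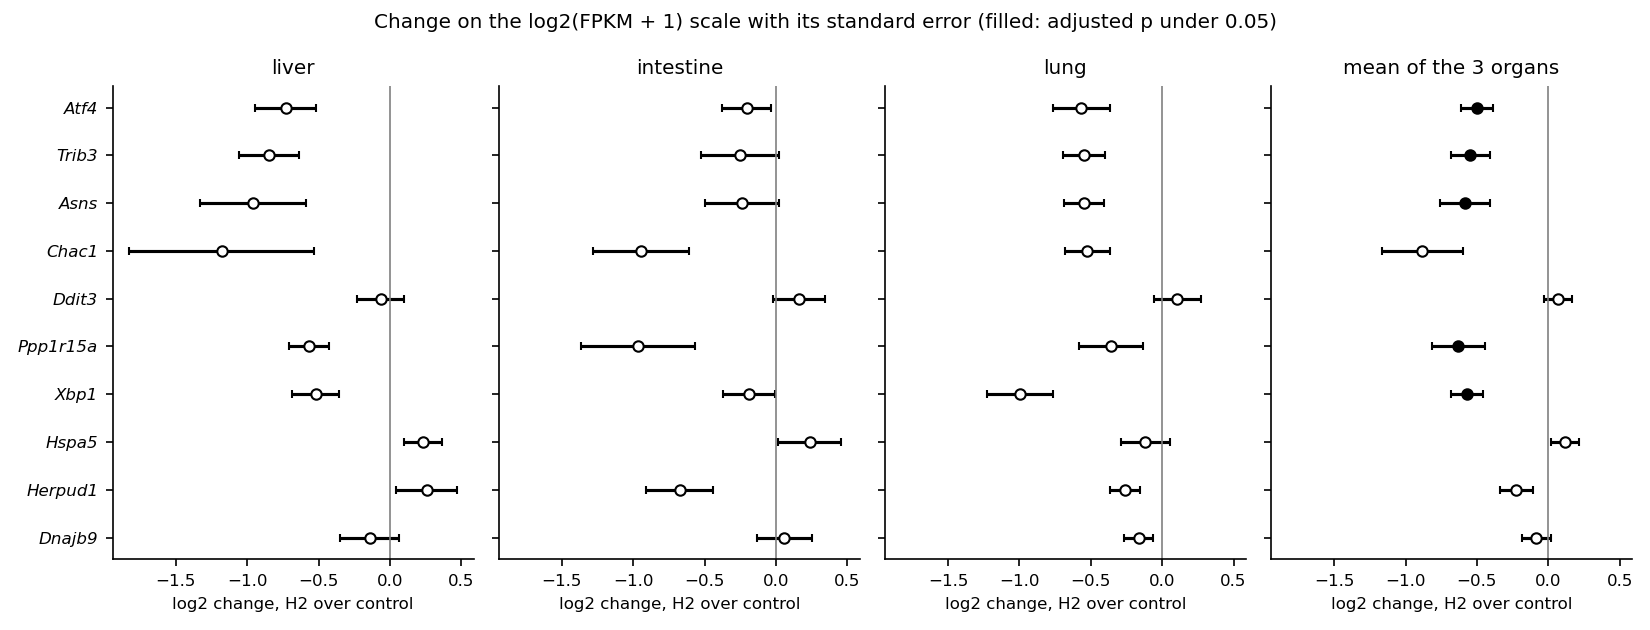
Change of each of the 10 genes on the log2(FPKM + 1) scale, H2 over control, with its standard error, in each organ (n = 3 libraries per group) and as the mean of the 3 organs; filled points passed an adjusted p of 0.05. The mean over organs is filled for Atf4, Trib3, Asns, Ppp1r15a and Xbp1, at -0.50 to -0.63, and Hspa5 is at 0.12.

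The organ results depended on the control libraries that stood apart. These were picked for lying near H2 over all tested genes, the 10 genes included, so leaving them out tends to widen the differences. The calls without them describe that dependence and are not separate evidence of a fall. Without control liver 2, 6 of the 10 genes fell in the liver, namely Atf4, Trib3, Asns, Chac1, Ppp1r15a and Xbp1, while the share of all tested genes that passed grew to 28.2% (13.5% lower). Atf4 then fell by 0.98 on the log2 scale (limma adjusted p = 0.00263), and Chac1 by 1.88 (limma adjusted p = 0.0209). Without control lung 3, Atf4, Trib3, Chac1 and Xbp1 fell in the lung, and 24.5% of all tested genes passed (12.6% lower). Xbp1 then fell by 1.28 on the log2 scale (limma adjusted p = 0.00464). Without control intestine 2, 0 of the 10 genes passed in the intestine (0.236% of all tested genes did), and 4 fell in the mean over organs, without Asns (12.9% of all genes passed). For the mean over organs, 6 genes fell without control liver 2 and 6 without control lung 3, the 5 named above and Chac1 in each case, with 19.6% and 21.2% of all genes passing. Of the other libraries, 9 brought the count to 2 when left out, Atf4 and Xbp1: H2 livers 1 and 3, control liver 3, H2 intestine 2, control intestines 1 and 3, H2 lung 2, and control lungs 1 and 2. Without H2 intestine 3, H2 lung 1, H2 lung 3 or control liver 1 it was 3, and otherwise 4 or 5. With array weights, which weigh libraries by their fit, it was 8 of 10, with 42.3% of all genes passing.

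No difference between organs passed for any of the 10 genes. The differences of the H2 change passed limma for 0 of 10 genes between liver and intestine (0.217% of 13362 genes passed), liver and lung (0.239%), and intestine and lung (1.24%). At an unadjusted p under 0.05 the counts were 1, 0 and 1 (15.5%, 12.3% and 19.7% of all genes). Beside Herpud1, the other was Xbp1, whose H2 change in the intestine exceeded that in the lung by 0.80 ± 0.28 (SE, limma adjusted p = 0.133). Without control lung 3, a library picked for lying near H2, this difference was 1.08 and passed (limma adjusted p = 0.0067). The intestine had the smallest median change of the 10 genes, but no test showed that it differed from the other organs.

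Library by library, 4 of the genes correlated with Atf4 most among the 10. After subtraction of the organ mean, Atf4 correlated over the 18 libraries with Trib3 (Pearson r = 0.84), Xbp1 (0.81), Asns (0.76) and Chac1 (0.74), and less with Ppp1r15a (0.59). Its correlation was 0.14 with Dnajb9, 0.12 with Herpud1, -0.11 with Ddit3 and -0.29 with Hspa5. These are descriptions: libraries of a group share their treatment, and the labels do not say which share a mouse. Treatment means were not subtracted, so genes lower with H2 tend to correlate with Atf4. Tubb6, Prmt1 and Selp, outside the 10, correlated with it more closely (r = 0.934, 0.932 and 0.924). How many of all genes do so was not counted. Averaged over the 10 genes, the deviation from the organ mean was -0.36, 0.02 and -0.34 in H2 livers 1 to 3, against 0.28, -0.05 and 0.46 in control livers 1 to 3. It was 0.02, -0.19 and -0.28 in H2 intestines, against 0.28, -0.02 and 0.19 in control intestines, and -0.10, -0.30 and -0.20 in H2 lungs, against 0.31, 0.17 and 0.12 in control lungs. Control liver 2 and control intestine 2 were the control libraries nearest to H2 values, and the lungs did not overlap.

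**Figure D4:**
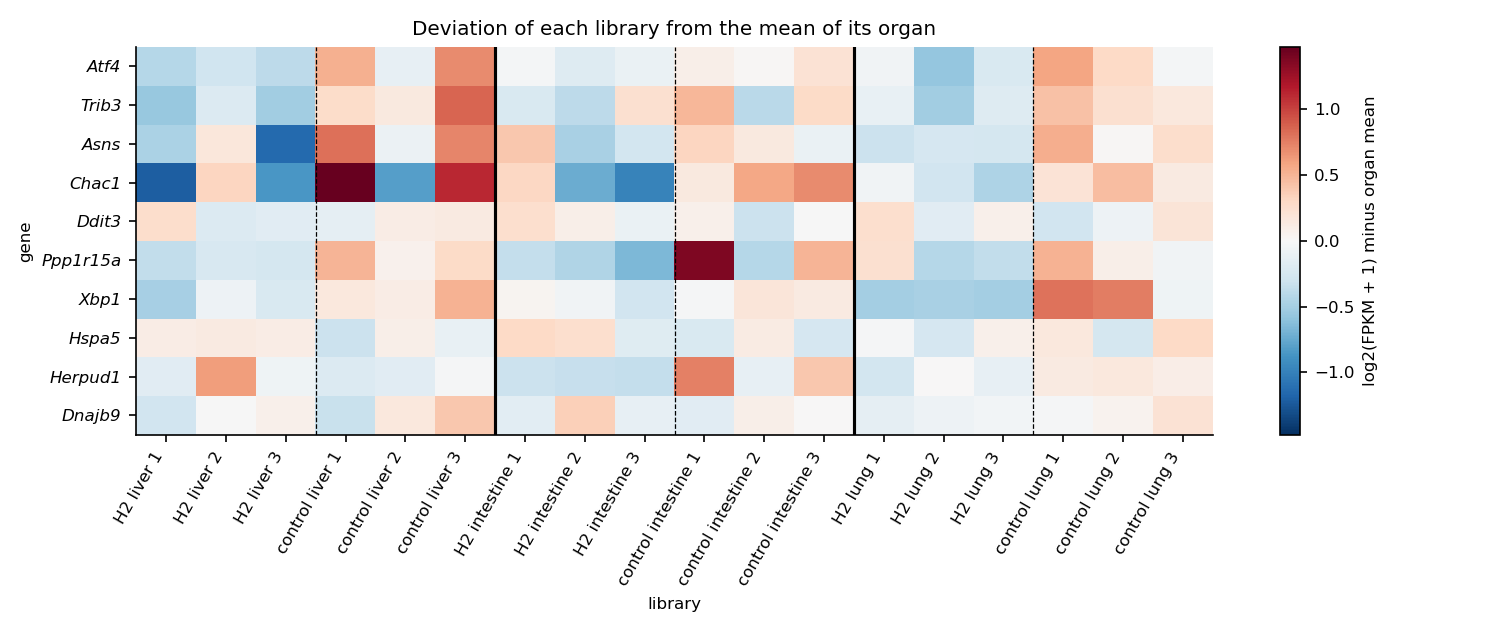
Deviation of each library (columns, H2 left of control within each organ) from the mean of its organ for each of the 10 genes (rows), in log2(FPKM + 1); blue is below and red above the organ mean. H2 columns are mostly blue for Atf4, Trib3, Asns, Chac1, Ppp1r15a and Xbp1, and more weakly for Dnajb9. Ddit3 shows no such block, and Hspa5 is slightly red in every H2 liver. Herpud1 is blue in most H2 columns but high in H2 liver 2.

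Among 12449 expressed genes compared in the same way, Atf4 was most like Tubb6, a tubulin gene (r = 0.934), Prmt1, an arginine methyltransferase gene (r = 0.932), and Selp, the P-selectin gene (r = 0.924). Asns was most like Sars, the seryl-tRNA synthetase gene (r = 0.923), followed by Nup93, a nuclear pore gene (r = 0.892), and Mthfd2, a gene of mitochondrial folate metabolism (r = 0.880). Xbp1 was most like Spic, a macrophage transcription factor gene (r = 0.933), and Ppp1r15a like Ptgs2, the cyclooxygenase 2 gene (r = 0.934). The closest match was Tfe3 for Trib3 (r = 0.879), Uba2 for Chac1 (r = 0.890), Mgat4b for Herpud1 (r = 0.892), Tmed7 for Dnajb9 (r = 0.894), Mnd1 for Ddit3 (r = 0.849) and Ndufaf5 for Hspa5 (r = 0.837).

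Other genes of the pathways were read from 9 lists, all 129 symbols of which were found. The lists, too, were chosen with earlier results known, so the shares of all genes beside them give only a scale. On the ATF4 side, several genes of amino acid supply and tRNA charging fell and none rose in the mean over organs. Of 20 tested amino acid genes 5 fell (Slc7a5, Slc7a1, Slc38a2, Mthfd2 and Eif4ebp1, the last a repressor of translation), with a median of -0.31 over the list, and of 13 tRNA synthetase genes 2 fell (Gars and Wars), with a median of -0.22. Of all tested genes 5.23% fell, and their median was 0.00. At an unadjusted p under 0.05, 10 of the 20 amino acid genes were lower and 2 higher, and 6 of the 13 tRNA synthetase genes were lower and 0 higher (15.3% and 15.4% of all genes). Slc7a5, a transporter of large neutral amino acids, had 0.503, 0.897 and 0.407 FPKM in H2 livers, against 3.07, 1.36 and 4.56 FPKM in control livers. Intestines had 4.32, 2.28 and 5.58 FPKM in H2 libraries, against 7.59, 7.10 and 11.2 FPKM in control libraries. Lungs had 3.17, 3.63 and 3.37 FPKM in H2 libraries, against 14.0, 9.12 and 3.93 FPKM in control libraries. No organ overlapped, and control lung 3 was the closest. Slc7a5 fell by 1.08 on the log2(FPKM + 1) scale over the organs (SE 0.21, limma adjusted p = 0.0127). With values this low, that scale gives a smaller change than the ratio of FPKM. Slc7a1, a transporter of arginine and lysine, fell by 0.65 (SE 0.14), and Slc38a2, a transporter of small neutral amino acids, by 0.43 (SE 0.11). In the liver Slc7a1 was near the floor, at 0.144 to 0.263 FPKM with H2, against 0.443 to 0.924 FPKM in control libraries. It was below the filter there and was not tested in the liver alone. Gars, which charges the tRNA of glycine, fell by 0.58 (SE 0.12) and Wars, which charges that of tryptophan, by 0.49 (SE 0.12). Psat1, an enzyme of serine synthesis, was at -0.63 ± 0.23 (SE) and did not pass (limma adjusted p = 0.0893). Slc7a5, Slc7a1 and Gars passed in 18 of 18 fits that left out a library, Wars in 10 and Slc38a2 in 7. With the organs averaged by replicate number, Slc7a5 passed (limma adjusted p = 0.0353) and was the only gene of these lists to do so.

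Of 12 partner and related transcription factor genes 2 fell (5.23% of all tested genes did). Cebpb, which encodes a dimer partner of ATF4, had 71.4, 67.1 and 61.9 FPKM in H2 lungs, against 166, 134 and 93.8 FPKM in control lungs, and its groups did not overlap in the other organs either. It fell by 0.72 on the log2 scale over the organs (SE 0.14, limma adjusted p = 0.0116). Creb3l1, an ER-anchored factor, fell by 0.63 (SE 0.15, limma adjusted p = 0.0246). In the liver Creb3l1 was near the floor, at 0.436 to 0.773 FPKM with H2, against 0.664 to 1.887 FPKM in control libraries, with overlap. Cebpb passed in 18 and Creb3l1 in 14 of the 18 fits that left out a library. Atf3, a target of ATF4, was at -0.23 ± 0.15 and Sesn2, a stress-induced inhibitor of mTORC1, at -0.39 ± 0.13 (SE), and neither passed (limma adjusted p = 0.309 and 0.0704).

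The stress hormone gene Gdf15 fell by 1.16 on the log2(FPKM + 1) scale over the organs (SE 0.29, limma adjusted p = 0.0293). It had 2.93, 1.94 and 2.47 FPKM in H2 livers, against 11.7, 5.14 and 4.37 FPKM in control livers, without overlap. It had 4.36, 0.349 and 1.08 FPKM in H2 intestines, against 9.93, 2.73 and 6.52 FPKM in control intestines, with overlap, and it passed in 8 of the 18 fits that left out a library. The other hormone gene, Fgf21, was at most 0.266 FPKM outside the liver. In the liver it had 4.13, 6.23 and 6.73 FPKM in H2 libraries, against 10.5, 4.76 and 4.96 FPKM in control libraries, and the groups overlapped.

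Among genes of the ER itself only 1 passed in the mean over organs. Of 24 chaperone and folding genes 0 passed in either direction in the mean over organs by limma. At an unadjusted p under 0.05, 5 were higher and 1 lower, against 15.4% and 15.3% of all genes. The change was above 0 for 19 of them, while 49.6% of all genes were below 0, and the median was 0.15. By organ the change was above 0 for 21 (liver), 19 (intestine) and 13 (lung) of the 24. Of all tested genes 53.2%, 47.8% and 50.5% were below 0 in these organs. Hsp90b1, which encodes the chaperone GRP94, had 545, 594 and 419 FPKM in H2 intestines, against 316, 434 and 332 FPKM in control intestines, with overlap through control intestine 2, and its mean change over the organs was 0.26 ± 0.13 (SE, limma adjusted p = 0.185). Canx, a membrane lectin chaperone gene, was at 0.32 ± 0.11 (SE, limma adjusted p = 0.0722) and Txndc11, of the thioredoxin domain family, at -0.24 ± 0.08 (SE, limma adjusted p = 0.0643). Sdf2l1 (0.21 ± 0.16) and Hyou1 (-0.02 ± 0.14, SE) did not pass. Of 16 genes of ER-associated degradation 0 passed (1 lower and 0 higher at an unadjusted p under 0.05, against 15.3% and 15.4% of all genes), and the median was -0.03. By organ their change was below 0 for 6 (liver), 9 (intestine) and 15 (lung) of the 16 (53.2%, 47.8% and 50.5% of all genes). Vcp, the extraction ATPase, was at -0.20 ± 0.07 (SE, limma adjusted p = 0.0682), and Erlec1, an ER lectin gene, at -0.19 ± 0.11 (SE).

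Of 21 genes of translocation into and export from the ER only Srpr, a subunit of the receptor of the signal recognition particle, passed (5.23% of all tested genes fell), and it fell by 0.30 (SE 0.06, limma adjusted p = 0.0162). It had 115, 118.5 and 111 FPKM in H2 livers, against 140, 125 and 138 FPKM in control livers, and the groups were apart in all 3 organs, by little in the lung (H2 lung 3 at 70.25 and control lung 3 at 70.9 FPKM). It passed in 18 of 18 fits that left out a library. In the lung alone, 19 of the 21 genes were below 0 (50.5% of all genes). There 7 were lower and 0 higher at an unadjusted p under 0.05 (12.5% of all genes were lower). Without overlap, 10 were lower and 1 higher (15.9% and 14.1%). Below 0 were 10 of 20 in the liver (53.2%) and 7 of 21 in the intestine (47.8%). Of 12 kinases, phosphatase subunits and sensors 0 passed by limma (1 higher and 0 lower at an unadjusted p under 0.05, against 15.4% and 15.3% of all genes). Among these, Eif2ak3 (PERK) was at -0.21 ± 0.10, Ern1 (IRE1) at 0.12 ± 0.14, Atf6 at -0.16 ± 0.10 and Mbtps1, a protease that cuts ATF6, at 0.27 ± 0.10 (SE). Of 8 cell death genes 0 passed (3 lower and 0 higher at an unadjusted p under 0.05, against 15.3% and 15.4% of all genes), with Bcl2l11 at -0.47 ± 0.16 and Bax at -0.28 ± 0.10 (SE). In the plot of the lists, the amino acid genes lie mostly left of 0 and the chaperones mostly right of it in the mean over organs.

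**Figure D5:**
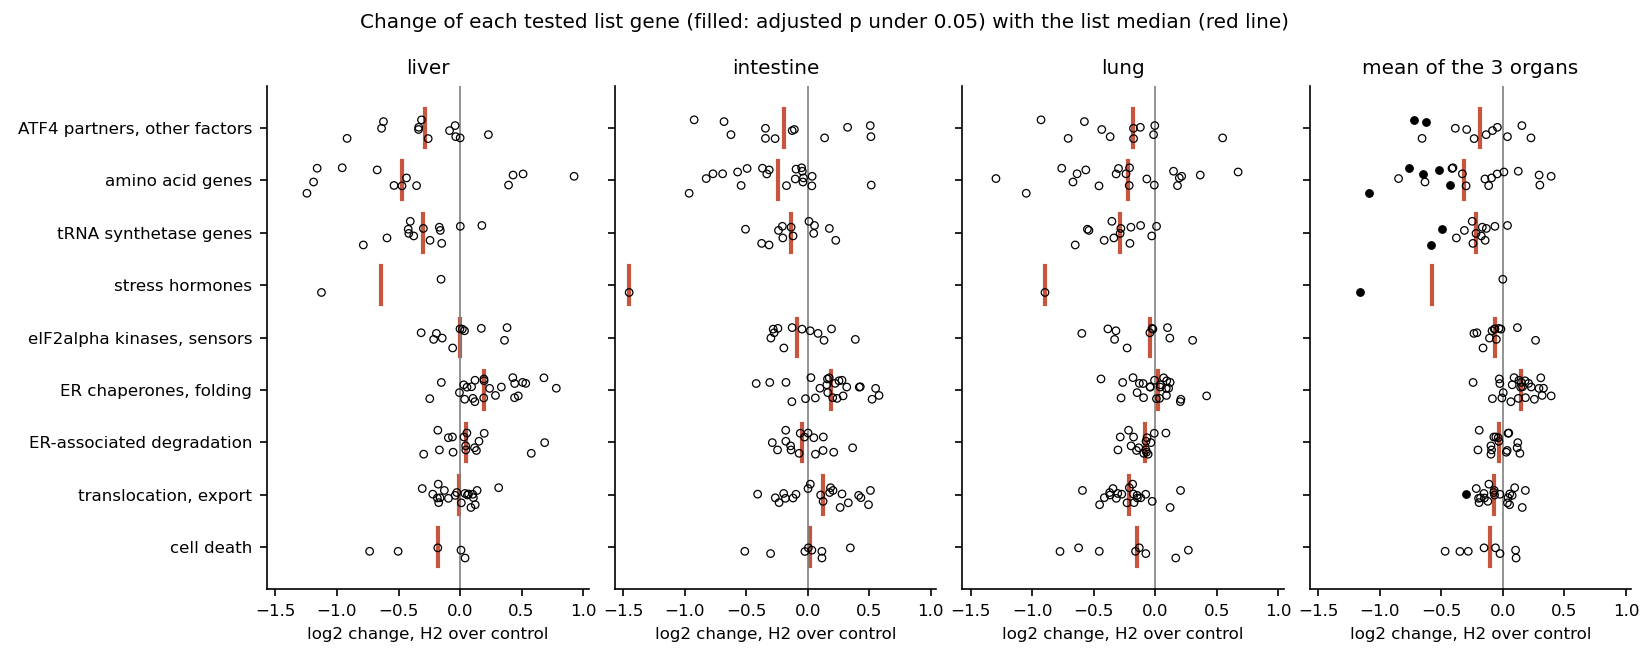
Change of each tested gene of the 9 pathway lists (points) on the log2(FPKM + 1) scale, H2 over control, in each organ and as the mean of the 3 organs, with the list median (red line); filled points passed an adjusted p of 0.05. In the mean over organs the median is -0.31 for the amino acid genes and 0.15 for the ER chaperones.

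Marker sums of several cell types differed between H2 and control beside these genes, and a sum can rest on few of its genes. The summed FPKM of 7 monocyte and macrophage markers was 121 to 169 in H2 livers, against 280 to 854 in control livers, and 282 to 323 in H2 lungs, against 348 to 745 in control lungs. Intestines overlapped, at 64.6 to 115 with H2, against 85.0 to 121 in control libraries. The largest single part of the liver sum was Cd14, with 99.2, 57.7 and 63.2 FPKM in H2 livers, against 807, 229 and 705 FPKM in control livers. Of the 7 markers in the liver 1 was lower and 4 were higher in H2 without overlap, with the higher ones including Adgre1 and Csf1r (13.1% of all tested liver genes were lower and 12.2% higher without overlap). Endothelial markers (6 genes) summed to 625 to 922 in H2 lungs, against 475 to 607 in control lungs, and 3 of the 6 were higher without overlap (14.1% of all tested lung genes). In H2 livers their sum was 22.6 to 29.9, against 18.3 to 23.1 in control livers, and 4 of the 6 were higher without overlap (12.2%). Hepatocyte markers in the intestine summed to 7240 to 15600 in H2 libraries, against 3070 to 6090 in control libraries. Adipocyte markers (6 genes) summed to at most 233 in H2 intestines, against at least 305 in control intestines, and to 39.8 to 55.6 in H2 livers, against 71.8 to 162 in control livers. The defining adipocyte gene Plin1 was at 0 in all liver libraries, and Adipoq and Lep were at 0 in all H2 livers. The 6 plasma cell markers, of a secretory cell type rich in Xbp1 mRNA, had sums that overlapped between the groups in every organ, at 111 to 125 in H2 livers, against 96.2 to 175 in control livers, and 73.5 to 85.1 in H2 lungs, against 71.8 to 124 in control lungs, with Tnfrsf17 at 0 in all libraries of both organs. The liver sum was nearly all Sdc1 and Derl3, which other cells also express, with Jchain at most 0.146 and Mzb1 at most 0.13 FPKM. Sdc1 had 59.1, 47.0 and 52.5 FPKM in H2 livers, against 116, 67.3 and 69.8 FPKM in control livers, without overlap, while Irf4, at most 0.095 FPKM, was higher without overlap. Pancreatic acinar markers (10 genes), of another such type, summed to at most 1.19 FPKM in any library. Goblet cell markers summed to 5.14 to 6.81 in H2 lungs, against 9.90 to 16.8 in control lungs, and alveolar type 2 markers to 141 to 193 in H2 intestines, against 73.0 to 126 in control intestines. Paneth cell markers reached 30600 to 71300 in H2 intestines, against 17600 to 30600 in control intestines. In the intestine, 4 of 6 Paneth, 2 of 6 hepatocyte and 1 of 6 alveolar type 2 markers were higher without overlap (10.6% of all tested genes). Of 6 adipocyte markers, 3 were lower without overlap in the intestine (8.75%) and 1 in the liver (13.1%). In the lung, 1 of 6 goblet cell and 3 of 7 monocyte and macrophage markers were lower without overlap (15.9%). The sums of the other lists, and of these lists in the organs not named, overlapped between H2 and control in each organ. The part of RNA from these cell types in the changes of the 10 genes was not tested.

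Levels of the 10 genes differed between the organs of control mice, most for Chac1, Ppp1r15a and Asns. The control mean of Chac1 was 7.93 times higher in the liver than in the lung (25.4 ± 16.4 against 3.21 ± 0.504 FPKM, SD, n = 3 each). That of Ppp1r15a was 43.8 ± 9.41 FPKM in the lung, 11.5 ± 7.37 in the intestine and 7.91 ± 1.36 in the liver, and the intestine and the liver overlapped. Asns had 92.3 ± 13.1 FPKM in the intestine, 21.6 ± 6.90 in the liver and 16.7 ± 3.14 in the lung, and the liver and the lung overlapped. Ddit3 had 35.4 ± 5.94 FPKM in the lung, 19.1 ± 2.83 in the intestine and 9.78 ± 1.07 in the liver, without overlap. Dnajb9 (114 ± 28.0 FPKM) and Hspa5 (721 ± 99.0 FPKM) were highest in the liver, while Herpud1 (171 ± 3.75 FPKM) was highest in the lung, an order that turned in liver over lung with quantile and median-of-ratios scaling. Atf4 had 286 ± 60.7 FPKM in the lung, 222 ± 15.4 in the intestine and 146 ± 40.4 in the liver, and its intestine and lung overlapped. Trib3, at 5.37 to 5.95 FPKM, and Xbp1, at 208 to 263 FPKM, overlapped between all organs.

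By limma, 6 of the 10 genes differed between control liver and control intestine (72.6% of all genes did), 7 between liver and lung (85.1%), and 7 between intestine and lung (68.9%). Most genes differ between organs, so these counts are not particular to the stress response. FPKM scaling matters here, since the median change of all genes was -0.64, -1.17 and -0.45 in these comparisons. After median-of-ratios scaling, which brings these medians to between -0.04 and 0.01, Atf4 and Xbp1 were at 0.43 and 1.34 in liver over lung, against -0.98 and -0.08 as deposited. The same scaling turned the sign of Atf4 in liver over intestine and of Atf4 and Xbp1 in intestine over lung.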

How the data were processed

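Per the labels' protocols, a stranded TruSeq mRNA kit made the libraries. The submitters' processing notes name Cufflinks 2.2.1, TopHat2 2.0.13, SAMtools 0.1.19 and Bowtie2 2.2.3, with genome mm10, while annotation and options are not given in the sources used here. FPKM were deposited by the authors, 1 column per library for 24346 symbols, and no scaling across libraries is stated. A second column in the control lung 2 file equals control lung 3 (0 values differ) and was not used. No pair of libraries was identical.

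log2(FPKM + 1) was analysed with limma 3.58.1 (R 4.3.3; empirical Bayes with trend, two-sided, Benjamini-Hochberg over all tested genes, called under 0.05) for genes averaging 1 FPKM or more. Each organ was fitted alone. The mean over organs, the differences between organs and the control organ comparisons used 18 libraries with 1 mean per group. An exact permutation test with 3 against 3 cannot go below 0.1. Fits were tested on simulated data. Depth is only implied by the FPKM, so no counting interval is given.

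The members and lists were chosen with earlier results of these data known. Named are the 10 members, 12 fixed partner genes, per list the called genes (at most 3 per direction, by p) or else the 2 with the smallest p, and the genes most alike by r. Mthfd2, Eif4ebp1 and the marker genes given singly were named after their values were seen. Markers covered 17 lists, with 1 of 102 symbols not found. Gene positions are from GENCODE vM21 (mm10), promoters from RefSeq. By blastn 2.17.0, no other gene's transcript matched a member at 95% identity over 100 bases. Alternatives were: a pseudocount of 0.1 or 5, all genes kept, only genes averaging 5 FPKM or more, quantile and median-of-ratios scaling, no trend, array weights, a replicate block, all libraries in 1 fit, 1 mean over organs per number, and each library left out.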

Additional observations from a re-analysis of the deposited data

How the results depend on the processing

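Of 1082 recomputed H2 changes of single genes under settings that kept all libraries, 1069 kept their sign. Exceptions in the intestine were Hspa5 (-0.067), Dnajb9 (-0.054) and Ppp1r15b (-0.085) with quantile normalization, and Asns (0.048) and Dnajb9 (-0.017) with array weights. In the lung they were Hspa5 with quantile normalization (0.094), and Hspa5 (0.15), Hyou1 (0.30) and Sdf2l1 (0.25) with array weights. Over the organs they were Hyou1 with array weights (0.21) and Fgf21 at a pseudocount of 5 (-0.025), with quantile normalization (-0.018) and with median-of-ratios scaling (-0.0074).

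The number of the 10 genes called over the organs was 5, and became 3 at a pseudocount of 5 and without the filter, 8 with array weights and 0 when organs were averaged by replicate number. Leaving out each library gave 2 to 6. With array weights it was 6 in the liver (25.1% of all genes) and 6 in the lung (53.2%), and 2 and 1 for the differences liver minus lung (24.1%) and intestine minus lung (20.4%). With all 18 libraries in 1 fit it was 1 in the lung (4% of all genes). Leaving out each library gave 0 to 6 in the liver, 0 to 4 in the lung and 0 to 1 for intestine minus lung. The cause of these shifts was not tested. Array weights also moved the count over all genes, to 5655 against 1285 over the organs.

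Whether replicate numbers pair H2 with control libraries cannot be told here, since deviations within a group of 3 are not independent of each other. Same-numbered H2 and control libraries correlated at -0.08 to 0.33 in the liver, -0.11 to 0.16 in the intestine and -0.01 to 0.12 in the lung. Differently numbered ones correlated at -0.291 to 0.249, -0.149 to 0.173 and -0.104 to 0.0743. With the replicate number as a block, 4 of the 10 genes were called over the organs, and Asns was not (limma adjusted p = 0.0944). Across organs, same-numbered control livers and control intestines correlated at 0.0978 to 0.212, above every differently numbered pair, but control livers and control lungs at -0.182 to 0.136 and H2 livers and H2 intestines at -0.012 to 0.0513. The test over 18 libraries does not model such sharing.

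Leaving out each library turned the sign of H2 changes near 0, with these ranges. In the liver they were -0.21 to 0.018 for Ddit3, -0.34 to 0.019 for Dnajb9, -0.13 to 0.062 for Atf6, -0.037 to 0.11 for Ppp1r15b, -0.17 to 0.21 for Hsp90b1 and -0.33 to 0.17 for Fgf21. In the intestine they were -0.11 to 0.14 for Dnajb9, -0.24 to 0.030 for Ern1, -0.068 to 0.13 for Ppp1r15b and -0.14 to 0.12 for Psat1. In the lung they were -0.0065 to 0.23 for Ddit3, -0.052 to 0.22 for Ern1, -0.40 to 0.060 for Atf3, -0.32 to 0.065 for Hyou1 and -0.35 to 0.099 for Sdf2l1. Over the organs they were -0.10 to 0.071 for Hyou1 and -0.058 to 0.11 for Fgf21.

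Comparisons between control organs turned with scaling. In liver over intestine, quantile normalization gave Trib3 0.67 and Ppp1r15a 0.46, and median-of-ratios scaling gave Atf4 0.22, Trib3 0.63 and Ppp1r15a 0.46. In liver over lung, quantile normalization gave Trib3 1.296, Xbp1 0.41 and Herpud1 0.15, median-of-ratios scaling Atf4 0.43, Trib3 1.10, Xbp1 1.34 and Herpud1 0.93, and array weights Trib3 0.080. In intestine over lung, median-of-ratios scaling gave Atf4 0.21 and Xbp1 0.27. Leaving out each library gave -0.38 to 0.068 for Trib3, -0.19 to 0.96 for Chac1 and -0.77 to 0.13 for Ppp1r15a in liver over intestine, -0.32 to 0.040 for Trib3 and -0.36 to 0.074 for Xbp1 in liver over lung, and -0.17 to 0.28 for Trib3 in intestine over lung.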

Other observations

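Some control libraries of different organs deviated from their group means together. Over 13362 genes, the deviations of control liver 2 correlated with those of control intestine 2 (r = 0.212) and control lung 3 (r = 0.266), and those of control intestine 2 with control lung 3 (r = 0.246). These are the control libraries that stood nearest to H2 in each organ over all tested genes (0.80, 0.56 and 0.76 on the axis from control to H2). Whether that shared position accounts for their correlation was not tested. Control libraries numbered 1 also correlated, at 0.185 (liver and intestine), 0.136 (liver and lung) and 0.186 (intestine and lung). Correlations are across genes, which are not independent replicates, and deviations within a group of 3 are not independent of each other. The labels do not state whether any of these libraries come from 1 mouse.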
